A study of Mus musculus with 6 samples.

Results

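Genes of glycolysis and of the hypoxia response were followed between wild-type and *Hotair* knockout fibroblasts. The list held 33 genes, and the array's annotation table gave 29 of them a probe set, a group of short probes, named for that gene alone. They were 12 glycolytic enzymes, 4 genes of glucose and lactate transport and flux control, and 13 other hypoxia genes, out of 18193 genes measured in all. The list was drawn up from known biology and not from these values, but with earlier results of these data in view. Of the other 4 genes, *Bnip3l* had probe sets shared with a pseudogene, *Gapdh* had only control or shared probe sets, and *Gpi1* and *Eno1* were not analysed here.

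The cells were fibroblasts grown from the tail tips of newborn mice, with RNA read on Affymetrix mouse expression arrays. One group carried wild-type *Hotair* (3 arrays) and the other was the *Hotair* knockout (3 arrays). *Hotair* is a long noncoding RNA of the Hoxc cluster, and the labels name no other allele or agent. Mice of both genotypes were backcrossed to C57BL6 to more than 97% similarity. Whether the 3 arrays of a genotype stand for separate mice or cultures is not given in the labels. A p-value here therefore reflects only how far these samples vary, and that variation may be technical.

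Glycolysis turns glucose into pyruvate, and with little oxygen the pyruvate is reduced to lactate and exported. Oxygen is sensed by prolyl hydroxylases that mark the factor HIF-1 alpha for destruction while oxygen is present. When oxygen runs low, HIF-1 alpha pairs with ARNT and switches on glycolytic enzymes, glucose uptake, mitochondrial autophagy and a negative feedback through the hydroxylases themselves. HIF binds a short DNA core, ACGTG or GCGTG, in promoters and enhancers.

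This core was searched in RefSeq promoter windows (assembly GRCm38.p6), which run from 250 bases before to 50 bases after an annotated transcript start. ACGTG, on either strand, was present in the windows of 22 of the 31 listed genes that had one (71%), against 26.1% of the 14452 genes measured on the arrays that had one. By group it was found for 9 of 15 enzymes, 3 of 4 transport and flux genes and 10 of 12 other hypoxia genes. The listed genes whose windows held no ACGTG were *Pfkp*, *Pfkl*, *Tpi1*, *Eno1*, *Eno2*, *Gpi1*, *Pdk1*, *Adm* and *Kdm3a*. *Bnip3l* and *Ndrg1* had no window. By window the share was 55.6% of the 45 windows of the listed genes, 19.6% of all 32851 windows and 22.9% of the windows of measured genes, and GCGTG was in 57.8%, 32.4% and 43.3%. Windows of the listed genes also held more CG pairs, with a median of 21 against 16 in measured genes. Among windows with at least 21 CG pairs, ACGTG was in 16 of 23 windows of listed genes (69.6%) and in 29.2% of those of measured genes. A match is a description of the letters and not a binding site.

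The stretches below lie before the start of 8 genes described in the results, and were chosen after the values were seen. Only windows that hold ACGTG were eligible, so the stretches do not stand for all listed genes. They are printed 5′ to 3′ on the gene's strand, and capitals mark ACGTG or its reverse complement CACGT. A run of CACGTG is a match on both strands at once.
*Pgk1* (chrX:106186925-106186998, + strand): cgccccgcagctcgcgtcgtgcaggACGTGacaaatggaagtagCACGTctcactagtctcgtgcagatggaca
*Pgam1* (chr19:41911732-41911786, + strand): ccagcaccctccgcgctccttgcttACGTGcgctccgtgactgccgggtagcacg
*Ldha* (chr7:46845731-46845799, + strand): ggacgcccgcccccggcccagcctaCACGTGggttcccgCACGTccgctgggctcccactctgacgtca
*Slc2a1* (chr4:119108684-119108738, + strand): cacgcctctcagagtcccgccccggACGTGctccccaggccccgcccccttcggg
*Slc16a3* (chr11:120949015-120949066, + strand): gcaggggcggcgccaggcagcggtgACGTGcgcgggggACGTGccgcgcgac
*Bnip3* (chr7:138909584-138909639, - strand): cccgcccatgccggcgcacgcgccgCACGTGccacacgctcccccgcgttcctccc
*Egln1* (chr8:124949293-124949347, - strand): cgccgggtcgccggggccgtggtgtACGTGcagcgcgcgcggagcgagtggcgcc
*Egln3* (chr12:54204074-54204124, - strand): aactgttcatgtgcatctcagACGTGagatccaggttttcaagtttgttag
The first motif printed begins 36 bases before the start in *Slc2a1*, 48 in *Ldha*, 68 in *Egln1*, 108 in *Bnip3*, 114 in *Pgam1*, 150 in *Pgk1* and 229 in *Egln3*. The *Ldha* window holds a further CACGTG, at position −145 from the start, that is not printed. In *Slc16a3* the first of a pair begins 27 bases before the start.

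Genotype was not the main division among the arrays. A principal component holding 51.7% of the variance over genes set replicate 1 of wild type and of knockout (−80 and −59.7) apart from the 4 other arrays (21.9 to 48.7). The next component, with 33.1% of the variance, did divide the genotypes within replicate numbers 2 and 3. Wild type scored −56.5 and −50.7 on it, while the knockout scores were 41.3 and 46.4. Both replicate 1 arrays fell between these, and there wild type (13.8) scored above knockout (5.7). Proliferation genes were low on the replicate 1 arrays. The mean log2 level over 22 such genes was 8.47 and 8.9985 there, against 10.80 to 11.29 on the others. Fibroblast markers averaged 10.81 to 12.11 in wild type and 12.48 to 12.69 in knockout over 10 genes. For *Thy1*, *Lum* and *Dcn* wild-type replicate 2 was the lowest array and wild-type replicate 3 the next. *Col3a1* had the same order in a narrower range (13.67 to 14.59). For the other markers wild-type replicate 2 was not the lowest array, and for *Col1a1* and *Fn1* it was the highest (12.79 and 14.32). *Thy1* measured 4.65 to 12.15 in wild type against 10.28 to 11.71 in knockout. *Lum* measured 5.03 to 8.79 against 8.56 to 10.46, and *Dcn* 6.87 to 10.94 against 11.54 to 12.98. Of the 10 markers 8 measured higher in knockout and 2 lower, and 0 passed over 6 arrays. The part of these fibroblast markers in the results was not tested. The means of the keratinocyte, endothelial and erythroid marker lists were at most 5.59 on every array. Single keratinocyte markers were higher, with *Krt10* at 7.57 to 8.09. *Dsp* measured 6.18 to 6.74 in wild type against 3.58 to 5.49 in knockout (−2.20 ± 0.54, limma adjusted p = 0.743). The list as a whole was divided, with 5 of 9 keratinocyte markers below 0, 4 above and a median of −0.01. The part of these keratinocyte markers in the results was not tested. Skeletal muscle markers averaged 4.88 to 5.69, and neural and glial markers 6.22 to 6.39. Of 12 muscle markers 9 lay below 0 and 3 above, with a median of −0.03. The muscle actin *Acta1* measured 12.85, 10.11 and 9.07 in wild type against 11.48, 6.59 and 7.13 in knockout (−2.27 ± 1.58). The part of these muscle and neural markers in the results was not tested. The 10 leukocyte markers averaged 7.10 in knockout replicate 1, against 5.51 to 6.12 in wild type and 5.39 and 5.56 in the other knockout arrays. In knockout replicate 1 *Gapdh* control probes read 0.75 higher at the 3′ than at the 5′ end, as degraded RNA does, against −0.21 to −0.03 on the other arrays. In bulk RNA a change in the share of a cell type and a change in RNA per cell cannot be told apart.

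Over the 6 arrays no listed gene differed between genotypes by the test. Most nevertheless measured lower in knockout: 23 of 29 had a difference below 0, against 48.9% of all genes, and their median difference on the log2 scale was −0.54 against 0.01 for all genes. By limma with Benjamini-Hochberg adjustment over 18193 genes, 0 of 29 and 0 of all genes (0%) had an adjusted p under 0.05, and the smallest adjusted p among the listed genes was 0.743. At an unadjusted p under 0.05 there were 5 listed genes lower in knockout and 0 higher, against 2.67% and 4.01% of all genes, and these 5 were glycolytic enzymes. With the replicate number as a block 0 were called (smallest adjusted p 0.424), and 4 lower and 2 higher had an unadjusted p under 0.05, against 4.23% and 6.86% of all genes.

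**Figure D1:**
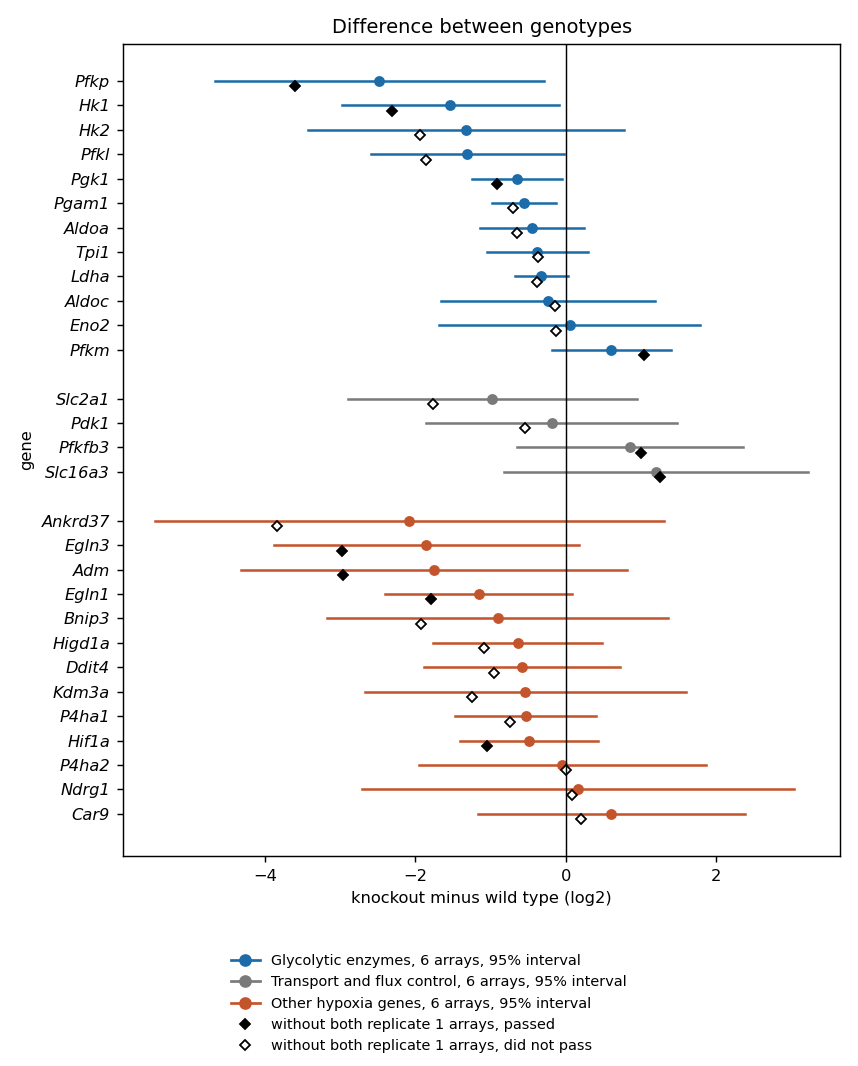
Difference between genotypes (knockout minus wild type, log2) for each of the 29 genes, as points with 95% intervals from limma over 6 arrays, coloured by group. Diamonds give the difference without both replicate 1 arrays, filled where it passed; 10 are filled, and the intervals of the *Hk1*, *Pfkl*, *Pfkp*, *Pgk1* and *Pgam1* points do not reach 0.

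Among the glycolytic enzymes 10 of 12 measured lower in knockout, with a median difference of −0.50. *Pgam1*, phosphoglycerate mutase, had the smallest p of the listed genes. It measured 13.10, 13.29 and 13.61 on the wild-type arrays and 12.84, 12.70 and 12.79 on the knockout arrays, in the order of replicates 1, 2 and 3. All knockout values lay below all wild-type values, and the difference was −0.56 ± 0.17 (SE; unadjusted p = 0.0182 and adjusted p = 0.743 by limma), which is 1.47-fold lower. *Pgk1*, phosphoglycerate kinase, makes the first ATP of the pathway. It measured 14.01, 13.90 and 14.26 in wild type against 13.88, 13.15 and 13.19 in knockout, a difference of −0.65 ± 0.24. Its groups did not overlap either, although knockout replicate 1 lay only just under the wild-type range, and on its dimmer probe sets that array lay inside the range (13.44 and 12.67). *Ldha*, the lactate dehydrogenase subunit that reduces pyruvate to lactate, measured 14.08, 14.05 and 14.31 in wild type against 13.88, 13.72 and 13.87 in knockout (−0.32 ± 0.14). In *Pgam1*, *Pgk1*, *Ldha* and *Pfkl* all knockout values were below all wild-type values, 4 of the 12 enzymes against 4.38% of all genes, and in 0 of the 29 listed genes were they all above, against 5.56%. For *Pfkl*, as for *Pgk1*, this held only on the brightest probe set. On the next *Pfkl* probe set knockout replicate 3 (8.584) lay above wild-type replicate 1 (8.567), and on the dimmest the groups overlapped too. *Pgam1* and *Ldha* had 1 probe set each.

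The steps that commit glucose to the pathway had the widest differences among the enzymes. *Pfkp*, the platelet-type phosphofructokinase, measured 9.67, 9.45 and 10.95 in wild type against 9.45, 6.84 and 6.35 in knockout. Knockout replicates 2 and 3 lay far below every other array, while replicate 1 was almost level with wild type. The difference was −2.48 ± 0.89, and all 3 of its probe sets measured lower. *Pfkl*, the liver-type phosphofructokinase, measured 9.87, 10.10 and 11.53 in wild type against 9.65, 8.55 and 9.37 in knockout, a difference of −1.31 ± 0.52. *Pfkm*, the muscle-type enzyme, ran the other way with 9.46, 8.78 and 8.83 in wild type against 9.19, 9.54 and 10.18 in knockout (0.61 ± 0.32). Its groups overlapped through replicate 1, whose knockout value lay below the wild-type value.

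*Hk1*, a hexokinase that traps glucose in the cell, measured 10.87, 10.98 and 12.33 in wild type against 10.90, 9.32 and 9.36 in knockout (−1.53 ± 0.59), and both of its probe sets were lower. *Hk2*, the hexokinase induced by growth signals and hypoxia, measured 10.28, 9.33 and 12.51 in wild type against 10.16, 9.08 and 8.89 in knockout (−1.33 ± 0.85). Its difference came mostly from wild-type replicate 3, and was −0.43 without that array. Of the other enzymes, the aldolases *Aldoa* and *Aldoc* differed by −0.45 ± 0.28 and −0.24 ± 0.58, triose phosphate isomerase *Tpi1* by −0.37 ± 0.27 and the neuronal-type enolase *Eno2* by 0.05 ± 0.70. *Aldoc* was dim on all arrays (4.59 to 6.42). *Gapdh* was read by array control probe sets, and the one at its 3′ end measured 14.47, 14.53 and 14.80 in wild type against 14.27, 14.32 and 14.44 in knockout, a difference of −0.26 that was not part of the test. The middle and 5′ control sets differed by −0.54 and −0.52, with their lowest values, 13.47 and 13.51, in knockout replicate 1, the array with the wide gap between 3′ and 5′ ends.

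**Figure D2:**
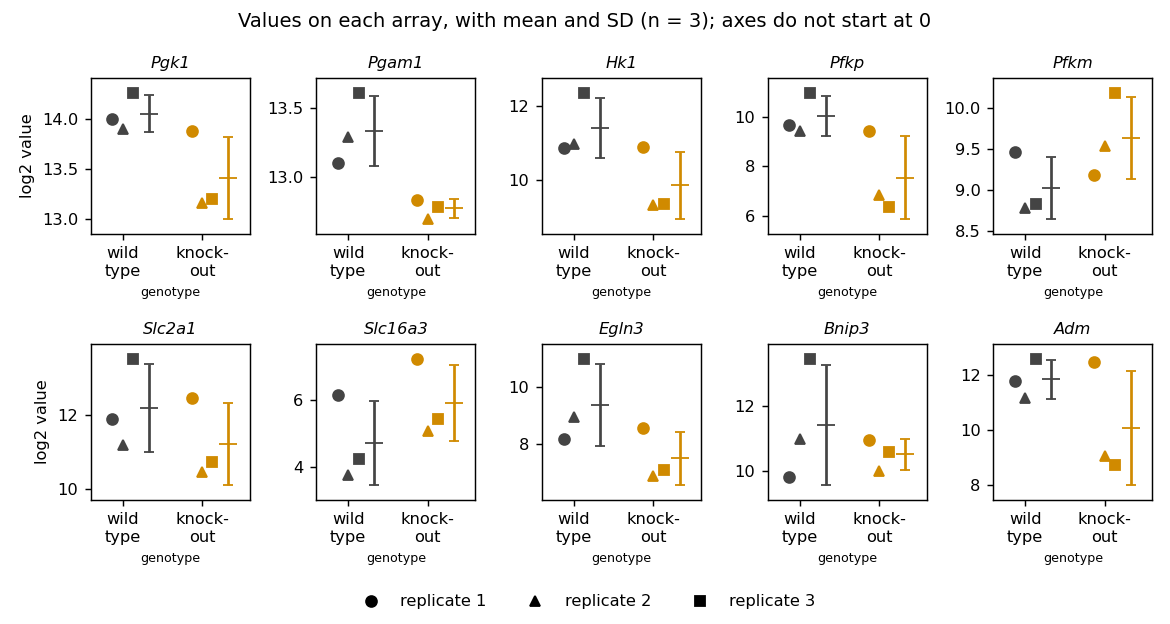
Log2 values of 10 genes on each array, with the replicate given by the marker and the mean and SD (n = 3) beside each genotype. In *Pgam1* and *Pgk1* the genotypes do not overlap, in *Pfkp* knockout replicates 2 and 3 (6.84 and 6.35) stand far below the rest, and in *Bnip3* wild-type replicate 3 (13.46) stands above all others.

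Transport and flux control genes were divided. *Slc2a1*, the main glucose transporter of fibroblasts, measured 11.89, 11.18 and 13.50 in wild type against 12.47, 10.45 and 10.72 in knockout (−0.98 ± 0.78), and all 3 of its probe sets were lower. *Slc16a3*, which exports lactate, measured 6.15, 3.77 and 4.25 in wild type against 7.24, 5.09 and 5.44 in knockout. Its 1 probe set was dim, with a mean of 5.32 against array medians of 5.56 to 5.68. The genotypes overlapped, yet knockout exceeded wild type within each replicate number, by 1.08, 1.32 and 1.19, and the overall difference was 1.20 ± 0.82. *Pfkfb3*, which makes the sugar phosphate that activates phosphofructokinase, showed the same layout, with 7.78, 5.81 and 6.31 in wild type against 8.34, 7.13 and 7.01 in knockout (0.86 ± 0.61). With the replicate block the unadjusted p was 0.000751 for *Slc16a3* and 0.0117 for *Pfkfb3*, and neither passed after adjustment (both 0.424). The second, dimmer probe set of *Pfkfb3* measured −0.20. *Pdk1*, a mitochondrial kinase that inhibits pyruvate dehydrogenase, measured 7.92, 8.88 and 10.55 in wild type against 8.44, 9.07 and 9.28 in knockout (−0.19 ± 0.68).

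Other hypoxia genes measured lower in 11 of 13 cases, with a median difference of −0.58. In 0 of the 13 did the genotypes separate completely. That is near the shares of all genes, 4.38% with knockout all below wild type and 5.56% with knockout all above. *Hif1a*, the oxygen-regulated factor itself, measured 11.33, 12.13 and 12.58 in wild type against 11.98, 11.30 and 11.31 in knockout (−0.48 ± 0.37), and all 4 of its probe sets were lower. The hydroxylase *Egln1*, which marks HIF-1 alpha for destruction, measured 9.71, 10.43 and 11.64 in wild type against 9.82, 9.25 and 9.23 in knockout (−1.16 ± 0.51). *Egln3*, a related hydroxylase that HIF induces, measured 8.17, 8.96 and 10.96 in wild type against 8.57, 6.88 and 7.09 in knockout (−1.85 ± 0.82). In these genes replicates 2 and 3 were lower in knockout while replicate 1 was higher, and the second probe set of each hydroxylase measured lower too.

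*Bnip3*, which drives removal of mitochondria, measured 9.82, 11.00 and 13.46 in wild type against 10.96, 10.01 and 10.59 in knockout (−0.91 ± 0.92). Its lowest and its highest value were both wild type, so the genotypes could not be told apart, and without wild-type replicate 3 the difference was 0.11. *Higd1a*, an inner mitochondrial membrane protein, differed by −0.64 ± 0.46. The collagen prolyl hydroxylase subunits, which act in collagen folding, did not move alike: *P4ha1* was at −0.53 ± 0.38 and *P4ha2* at −0.04 ± 0.78.

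The remaining genes included the widest spreads of all. *Ankrd37*, a small ankyrin-repeat protein induced by HIF, measured 6.88, 8.43 and 11.98 in wild type against 8.33, 6.01 and 6.72 in knockout (−2.08 ± 1.37). *Adm*, the vessel-dilating peptide adrenomedullin, measured 11.78, 11.17 and 12.56 in wild type against 12.46, 9.05 and 8.75 in knockout (−1.75 ± 1.04), with both probe sets lower. In *Adm* knockout replicate 1 sat with the wild-type arrays, well above the other knockout arrays. *Ndrg1*, a stress-induced protein, measured 9.75, 7.74 and 12.59 in wild type against 10.09, 10.15 and 10.35 in knockout (0.17 ± 1.17), a spread (SD, n = 3) of 2.43 against 0.14. *Ddit4*, an inhibitor of the growth kinase mTORC1, was at −0.58 ± 0.53 and the histone demethylase *Kdm3a* at −0.54 ± 0.87. *Car9*, a carbonic anhydrase, was dim and highest in knockout replicate 1 (7.25, against 4.63 to 5.83 elsewhere), the array on which leukocyte markers were also highest; the part of these markers in the result was not tested.

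Wild-type replicate 3 was the highest of the 6 arrays for most of these genes. This held for 23 of 29, against 12.9% of all genes, and by group for 10 of 12 enzymes, 2 of 4 transport and flux genes and 11 of 13 other hypoxia genes. The exceptions were *Pfkm*, *Aldoc*, *Slc16a3*, *Pfkfb3*, *P4ha2* and *Car9*. Relative to each gene's mean over 6 arrays, the median of the other hypoxia genes on that array was 1.59, against −0.31 and 0.20 on wild-type replicates 1 and 2 and 0.13, −0.51 and −0.46 on the knockout arrays. The enzymes stood at 0.61 on that array, with 0.18 and 0.03 on the other wild-type arrays and 0.01, −0.52 and −0.40 in knockout. The wild-type SD exceeded the knockout SD for 11 of the 13 other hypoxia genes and 7 of the 12 enzymes, against 55.7% of all genes. Without wild-type replicate 3 the median difference was −0.13 for the other hypoxia genes, 8 of 13 below 0, and −0.42 for the enzymes, 10 of 12 below 0. Among single genes *Bnip3*, *P4ha2*, *Kdm3a* and *Pdk1* then went from below to above 0, at 0.11, 0.18, 0.30 and 0.53. Others kept their sign at a much smaller size: *Ankrd37* was then at −0.64, *Egln1* at −0.63, *Egln3* at −1.05, *Hif1a* at −0.20, *Higd1a* at −0.17, *P4ha1* at −0.13 and *Ddit4* at −0.08. Among enzymes and transport, *Slc2a1* was then at −0.32, *Pfkl* at −0.79 and *Tpi1* at −0.13. Other arrays carried other genes: *Slc16a3* was at 0.54 and *Pfkfb3* at 0.44 without knockout replicate 1, *Pfkm* at 0.34 and *Adm* at −1.08 without knockout replicate 3, and *Aldoa* at −0.27 without knockout replicate 2. *Hk1*, *Pfkp*, *Pgk1*, *Pgam1* and *Ldha* stayed within 1.5 times their difference whichever single array was left out.

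**Figure D3:**
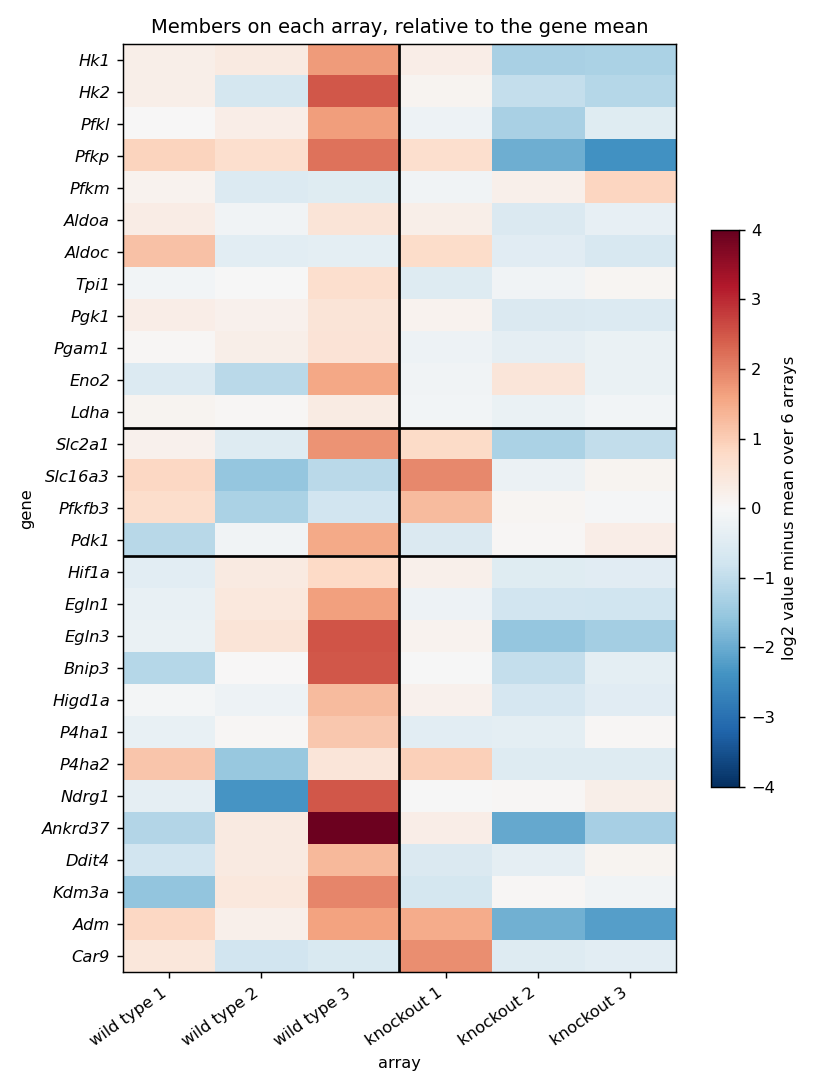
Each gene's log2 value on each array minus its mean over the 6 arrays, with lines between the enzymes, the transport and flux genes and the other hypoxia genes. The wild-type replicate 3 column is the highest for 23 of 29 genes, and knockout replicates 2 and 3 are low for most enzymes.

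Within replicate 1 most enzymes were lower in knockout and most other hypoxia genes were not. There 10 of 12 enzymes lay below 0 with a median of −0.21, while 2 of 13 other hypoxia genes were, with a median of 0.40, against 53.8% of all genes. Within replicate 2 the medians were −0.39 and −0.72, with 10 of 12 and 10 of 13 below 0, against 51.7% of all genes. Within replicate 3 they were −0.95 and −2.09, with 11 of 12 and 12 of 13 below 0, against 39.6% of all genes. Knockout was lower within all 3 numbers for 9 enzymes and 1 other hypoxia gene, *P4ha1*, against 13.4% of all genes. It was higher within all 3 for *Slc16a3*, *Pfkfb3* and *Car9*, against 17.1%. Transport and flux genes had medians of 0.57, 0.75 and −0.28. No test was made of the difference between the gene groups, and within a number there is 1 array per genotype.

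**Figure D4:**
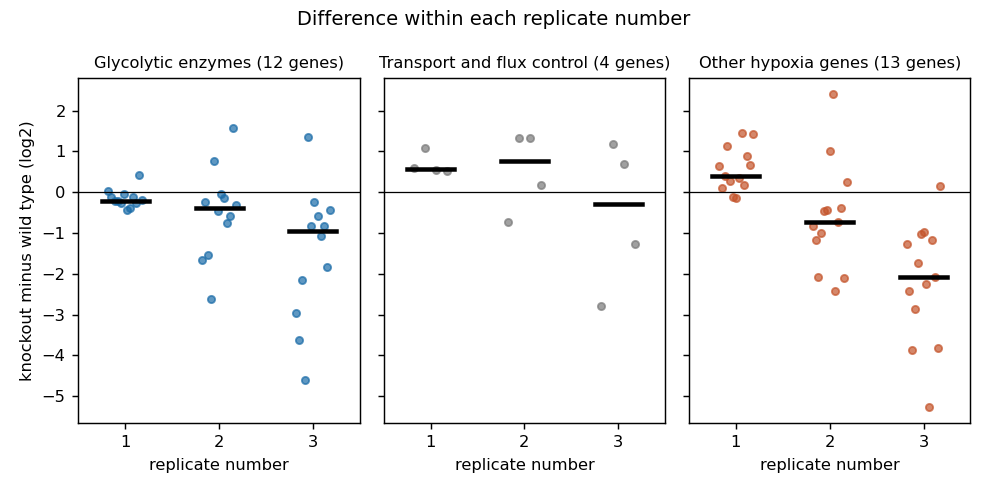
Knockout minus wild type (log2) within each replicate number, 1 point per gene, with the median of each group as a black bar. The medians of the enzymes are −0.21, −0.39 and −0.95 and those of the other hypoxia genes 0.40, −0.72 and −2.09.

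With both replicate 1 arrays removed, which leaves 2 arrays per genotype and was chosen after the values were seen, 10 listed genes passed (limma, adjusted over all genes). There were 7 lower, against 6.41% of all genes, and 3 higher, against 7.56%. The enzymes that fell were *Pfkp* (−3.60 ± 0.51, SE; adjusted p = 0.0152), *Hk1* (−2.31 ± 0.44) and *Pgk1* (−0.91 ± 0.18). Of the oxygen-sensing genes, *Hif1a* (−1.05 ± 0.20), *Egln1* (−1.80 ± 0.40) and *Egln3* (−2.98 ± 0.64) fell, and so did *Adm* (−2.96 ± 0.46; adjusted p = 0.0191). *Pfkm* (1.05 ± 0.24), *Slc16a3* (1.26 ± 0.23) and *Pfkfb3* (1.01 ± 0.21) rose. In this setting the medians were −0.68 for enzymes and −1.09 for other hypoxia genes, against 0.04 for all genes. Array weights, which gave the replicate 1 arrays weights of 0.24 and 0.33 against 1.04 to 3.18 for the others, called *Hk1*, *Pfkp*, *Pgk1* and *Pgam1* lower (4 of 29, against 4.85% of all genes) and *Pfkm* higher (1 of 29, against 6.7%). These settings differ from the 6-array test in which arrays count. On the brightest probe sets of *Pfkp*, *Adm* and *Hk1* knockout replicate 1 was the knockout array nearest to wild type. That was not so on the second *Hk1* probe set (7.18, 6.50 and 7.23 in knockout) or the dimmest of *Pfkp* (4.87, 4.89 and 4.67).

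Among glycolysis isozymes and regulators outside the list, 18 of 21 were measured, 0 passed over 6 arrays, 11 lay below 0 and the median was −0.06. *Slc2a3*, a high-affinity glucose transporter, measured 8.28, 4.96 and 6.07 in wild type against 8.70, 8.57 and 8.37 in knockout (4.32-fold higher; SE 0.82 on the log2 scale), opposite in sign to *Slc2a1*, and its groups did not overlap. *Pgm2*, a phosphoglucomutase, was at −0.73 ± 0.26. All 6 measured pentose phosphate genes lay below 0 and 0 passed, with a median of −0.33, *Taldo1* (transaldolase) at −0.88 ± 0.41 and *Pgls* at −0.73 ± 0.41.

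Genes for the fate of pyruvate and for its oxidation did not share the lower values. For the fate of pyruvate 13 of 14 genes were measured, 0 passed, 5 lay below 0 and the median was 0.15. *Pdk4*, a kinase that shuts off pyruvate dehydrogenase, measured 6.80, 4.61 and 5.54 in wild type against 6.89, 6.95 and 7.02 in knockout (1.31 ± 0.54), without overlap, while the related *Pdk3* was at −0.35 ± 0.20. In the tricarboxylic acid cycle, which burns pyruvate carbon in mitochondria, 15 of 16 genes were measured, 0 passed, 6 lay below 0 and the median was 0.09. *Dlst*, a subunit of oxoglutarate dehydrogenase, was at −0.71 ± 0.27 and *Suclg2*, of succinate-CoA ligase, at 0.31 ± 0.16.

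HIF subunits and regulators outside the list had a median of 0.18 over 11 genes, of which 4 lay below 0 and 0 passed. *Arnt*, the partner of HIF-1 alpha, measured 8.87, 8.81 and 8.98 in wild type against 9.12, 9.95 and 9.82 in knockout (0.74 ± 0.25), without overlap. *Siah1a*, a ubiquitin ligase that degrades EGLN proteins, was at −0.60 ± 0.21. *Epas1*, which encodes HIF-2 alpha and was named after its values were seen, measured 7.83, 5.03 and 5.29 in wild type against 6.75, 7.44 and 7.87 in knockout (1.31 ± 0.79). Without both replicate 1 arrays *Epas1* rose (limma adjusted p = 0.0063) and *Hif1a* fell (adjusted p = 0.03). In that setting 2 of the 11 genes were called lower and 2 higher, against 6.41% and 7.56% of all genes. Besides *Epas1*, *Arnt* rose, while *Siah1a* and the HIF partner *Arnt2* fell. *Arnt2*, also named after its values were seen, was at −2.05 ± 0.26 (limma adjusted p = 0.0121). A change in the balance of HIF subunits was not tested.

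Other known hypoxia targets outside the list also lay mostly below 0. Of 32 such genes 30 were measured, 0 passed, 23 lay below 0 and the median was −0.43. Wild-type replicate 3 was the highest array for 21 of these 30, and without it the median was −0.10. Within replicate 1 knockout was lower for 15 of the 30, within replicate 2 for 17 and within replicate 3 for 25. *Plod2*, a lysyl hydroxylase of collagen, measured 10.70, 11.34 and 12.997 in wild type against 11.08, 8.83 and 8.87 in knockout (−2.09 ± 0.84). *Cited2*, which restrains HIF by competing for its coactivator, was at −1.08 ± 0.45. Without both replicate 1 arrays 4 of the 30 were called lower and 1 higher, against 6.41% and 7.56% of all genes.

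Second probe sets mostly went the same way. The 29 genes had 62 single-gene probe sets, of which 53 measured lower in knockout. Of 17 genes with several, 15 had all on one side of 0, the exceptions being *Pfkfb3* and *Ndrg1*, whose 5 probe sets ran from −0.01 to 0.47. In *Hif1a*, *Pfkp*, *Pfkl*, *Pgk1*, *Pdk1*, *Slc2a1*, *Tpi1*, *Higd1a* and *Aldoa* every one of 3 to 5 probe sets was lower. Probe sets of 1 gene read the same RNA on the same arrays and are not replicates.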

How the data were processed

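The authors deposited 1 log2 value per probe set and array; RMA and R 2.11.1 are named in the submitters' processing notes. RMA gives every array the same intensity distribution, which hides shifts in total RNA and shrinks differences of dim probes. The build of the annotation is not given in the sources used here. *Hotair* itself was not analysed here, so the labels were not checked against it. Of 45101 probe sets, 64 were controls, and 34945 were named for 1 gene by the platform annotation table. Each of 18193 genes was read by its brightest single-gene probe set. The comparison of knockout with wild type used limma (3.58.1, under R 4.3.3) in a model of genotype alone, and p-values were adjusted over all genes (Benjamini-Hochberg, threshold 0.05). Precision is limited by the number of arrays; 3 against 3 cannot give an exact permutation p below 0.1. The script was tested on simulated data.

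Same-numbered arrays deviated from their genotype means together (correlations over genes of 0.51, 0.39 and 0.35), although wild-type replicate 3 correlated best with knockout replicate 2 (0.43). All values come from the model without the replicate number unless the replicate block, an alternative, is named. Members and lists were chosen with earlier results of these data known. Named by rule were all members and, per wider pathway list except proliferation, the 2 genes of smallest p. Cell type markers were not held to this rule, and those named, such as *Thy1* and *Lum*, were chosen after their values were seen. Gene lists were described by counts and medians, without a set test. The keratinocyte, endothelial, erythroid, skeletal muscle and neural marker lists had medians of −0.01, −0.10, −0.05, −0.03 and −0.02, and fibroblast, leukocyte and proliferation lists 0.45, 0.31 and 0.45. Alternatives were the block, other eBayes settings, array weights, a filter on dim genes, renormalisation, other probe set choices, a threshold of 0.1 and leaving out arrays.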

Additional observations from a re-analysis of the deposited data

How the results depend on the processing

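Over 6 arrays 0 genes and 0 listed genes passed, and this held with the replicate block (0 and 0), the trended and robust prior, a mean log2 value of at least 6, renewed quantile normalization, means over probe sets, all probe sets tested and a threshold of 0.1. Array weights called 2101 genes, 5 of them listed, and leaving out replicate 1 of both genotypes, chosen after seeing the data, called 2542 and 10. Leaving out 1 array called 0 to 87 genes (87 without knockout replicate 1) and 0 listed genes. The cause of these changes was not tested. The medians ran from −0.68 to −0.42 for enzymes and from −1.10 to −0.13 for other hypoxia genes when 1 array was left out. For transport and flux genes the range was 0.071 to 0.61, but the median was −0.19 with the filter on dim genes, which removes *Slc16a3*, and 0.0021 with means over probe sets. Of 29 genes 21 kept their sign in every alternative, but 16 of these moved by over 1.5 times when 1 array was left out, such as *Ankrd37* (−3.19 to −0.64), *Slc2a1* (−1.61 to −0.32) and *Ddit4* (−1.10 to −0.080). The other 8 turned when 1 array was left out, with ranges of −0.67 to 0.29 for *Aldoc*, −0.47 to 0.85 for *Eno2*, −0.78 to 0.53 for *Pdk1*, −1.71 to 0.11 for *Bnip3*, −0.81 to 0.50 for *P4ha2*, −0.97 to 1.45 for *Ndrg1*, −1.46 to 0.30 for *Kdm3a* and −0.17 to 1.02 for *Car9*. *Eno2* also turned with quantile normalization (−0.023) and without both replicate 1 arrays (−0.13), and *P4ha2* with array weights (0.51) and without both replicate 1 arrays (0.0088).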
